A study of Mus musculus with 8 samples.

Results

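Natural killer (NK) cells of the long bone periosteum were described in mice fed chow of a normal diet (ND) or of a high-fat diet (HFD). Of 12253 cells kept from both libraries, 239 were members: 133 of 6029 in ND and 106 of 6224 in HFD. The members were chosen by their own transcripts. Each had over 500 but under 8000 genes with a unique molecular identifier (UMI, which counts a captured RNA molecule) and under 20% of UMIs from mitochondrial genes. It had at least 3 UMIs over Ncr1, Klrb1c, Eomes, Klrd1 and Gzma with at least 2 of these 5 genes detected, fewer than 3 UMIs over Cd3e, Cd3d and Cd3g, fewer than 2 of Cd79a, and under 2% of UMIs from S100a8 and S100a9. All mice were C57BL/6J males, 16 weeks old, and the labels list 4 samples per diet. Left femurs and tibias were digested with collagenase and dispase, and the cells were measured by droplet-based 3' single-cell RNA sequencing. The counts were deposited as 1 pooled matrix per diet with no map from cells to mice, so that no difference between diets could be tested, and a difference between the diets cannot be told apart from one between mice or between libraries. Intervals in brackets are exact 95% intervals and cover counting error only.

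NK cells are innate lymphocytes that kill stressed, infected or transformed cells without a rearranged antigen receptor. Killing is set by the balance of activating receptors, which signal through adaptors such as Tyrobp (DAP12) and Fcer1g, and of inhibitory receptors, among them many members of the mouse Ly49 (Klra) family that bind MHC class I. Granzymes and perforin are released from cytotoxic granules, and the cells also secrete interferon gamma and chemokines. In mice, NK cells mature from Cd27-expressing to Itgam (CD11b)-expressing stages, and Klrg1 marks the most mature cells.

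The start regions of 3 genes that the description below turns on are shown first. These are Nkg7, a granule membrane protein that the rule did not use, Xcl1, a chemokine ligand of Xcr1 on dendritic cells, and Cma1, a chymase gene that was the most restricted to NK cells among the late-stage genes. The windows run from 250 bases before to 50 after the annotated start (RefSeq, GRCm38.p6, which is the mm10 build named in the submitters' processing notes), 5′ to 3′ on the strand of the gene. They lie at chr7:43436888-43437187 (plus strand), chr1:164935473-164935772 (minus strand) and chr14:55944626-55944925 (minus strand). Capitals mark the letters GGTGTGA (a T-box motif, bound by factors of the Tbx21 and Eomes family) and TGTGGT (a Runx motif) on either strand.
Nkg7: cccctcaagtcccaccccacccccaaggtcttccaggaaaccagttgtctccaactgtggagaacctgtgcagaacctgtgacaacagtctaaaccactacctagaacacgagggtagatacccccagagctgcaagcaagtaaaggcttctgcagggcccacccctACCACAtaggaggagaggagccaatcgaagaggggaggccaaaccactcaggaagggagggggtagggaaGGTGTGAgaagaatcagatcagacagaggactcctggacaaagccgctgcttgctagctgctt
Xcl1: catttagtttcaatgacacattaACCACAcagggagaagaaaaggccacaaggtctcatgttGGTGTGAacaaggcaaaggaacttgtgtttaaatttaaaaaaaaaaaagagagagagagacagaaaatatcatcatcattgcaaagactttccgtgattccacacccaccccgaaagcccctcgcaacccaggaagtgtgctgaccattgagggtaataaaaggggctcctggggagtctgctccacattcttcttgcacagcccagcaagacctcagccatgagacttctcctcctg
Cma1: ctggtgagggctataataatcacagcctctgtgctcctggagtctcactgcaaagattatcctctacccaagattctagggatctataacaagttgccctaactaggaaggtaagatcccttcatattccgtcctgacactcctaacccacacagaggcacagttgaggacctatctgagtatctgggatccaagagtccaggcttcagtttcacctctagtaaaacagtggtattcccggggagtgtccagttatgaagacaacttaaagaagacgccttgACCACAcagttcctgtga
The T-box letters occurred in the Nkg7 and Xcl1 windows and in 3.98% of all 32851 windows of this length, and the Runx letters in all 3 and in 16.8% of all windows. Of the late-stage genes listed here, 9 of 12 had a window and 3 of these held the Runx letters, as did 3 of the 10 early-stage genes with a window. The T-box letters stood in 0 of the 9 and in 1 of the 10, and the AP-1 letters TGANTCA in 2 and 1. A match of letters is a description of the sequence and no measurement of binding.

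Members were sequenced to about the depth of all kept cells. The median was 4910 UMIs per cell in ND (1002 to 22321) and 4996.5 in HFD (883 to 29496), against 4610 and 4823.5 over all kept cells, and the members summed to 693251 and 644535 UMIs. All 5 genes of the rule were detected in 36 ND and 43 HFD members, and 2 of the 5 in 13 and 9. At the threshold itself, 2 members in each library had exactly 3 marker UMIs, and just outside it 3 ND and 2 HFD cells had 2 UMIs of 2 marker genes. A further 21 ND and 41 HFD cells had 3 or more UMIs of only 1 marker gene. Of these, 3 and 5 had an Nkg7 UMI. Cd3 UMIs were at 0 in 122 of 133 ND and 99 of 106 HFD members, and 52 and 60 cells that otherwise met the rule were left out for 3 or more. These 52 and 60 cells are among the 267 ND and 196 HFD T cells set beside the members below. The libraries shared 15 cell barcodes, of which 1 belonged to an ND member and 0 to an HFD member.

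A few members carried RNA of another cell type, and they set the most extreme values of the comparison of diets. By a limit set after the data were seen (at least 20 UMIs of the stromal, macrophage, B-cell or dendritic list, or of Elane, Prtn3 and Mpo), they were 3 of 133 in ND and 4 of 106 in HFD. In ND, 1 member of 11760 UMIs held 1323 of Ecrg4 and 406 of Dcn, stromal transcripts, and 1 of 13081 UMIs held 278 of Cd74 and 155 of Lyz2, as in macrophages. The other held 30 of Cd74. In HFD, 1 member of 26704 UMIs held 872 of Elane, a neutrophil progenitor protease, 1 of 12493 UMIs held 149 of Sparc and 72 of Bglap, which are osteoblast genes, and 1 of 29496 UMIs held 1337 of Cd74 and 491 of Lyz2. The last, of 9968 UMIs, held 32 of Siglech, a plasmacytoid dendritic cell gene. It and the Lyz2-rich cell had 0 UMIs of Nkg7. Leaving these 7 out leaves 130 ND and 102 HFD cells, and these still held other cell types' transcripts below the limit or outside its lists, given with the genes of maturation below. Ratios below are for all members unless the 7 are said to be left out.

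Genes that the rule did not use bore out the NK label. Nkg7 had a UMI in 127 of 133 ND and 104 of 106 HFD members, and its level was 3009 (2881 to 3141) and 3126 (2991 to 3266) UPM, the UMIs of a gene per 1000000 UMIs summed over the cells. It was 713 and 1005 in T cells and 16.1 and 16.0 in B cells. Ccl5, a chemokine of cytotoxic lymphocytes, was found in 131 and 104 members. Tyrobp, the adaptor, stood at 3273 and 3094 UPM against 228 and 254 in T cells, and perforin (Prf1) at 707 and 698 against 39.1 and 31.8. As a background, after each cell was thinned to 1000 UMIs, Nkg7 was seen in 87.2% of ND and 94.3% of HFD members and in 1.09% and 0.856% of B cells, whose median depths were 3883.5 and 3833 UMIs.

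**Figure D1:**
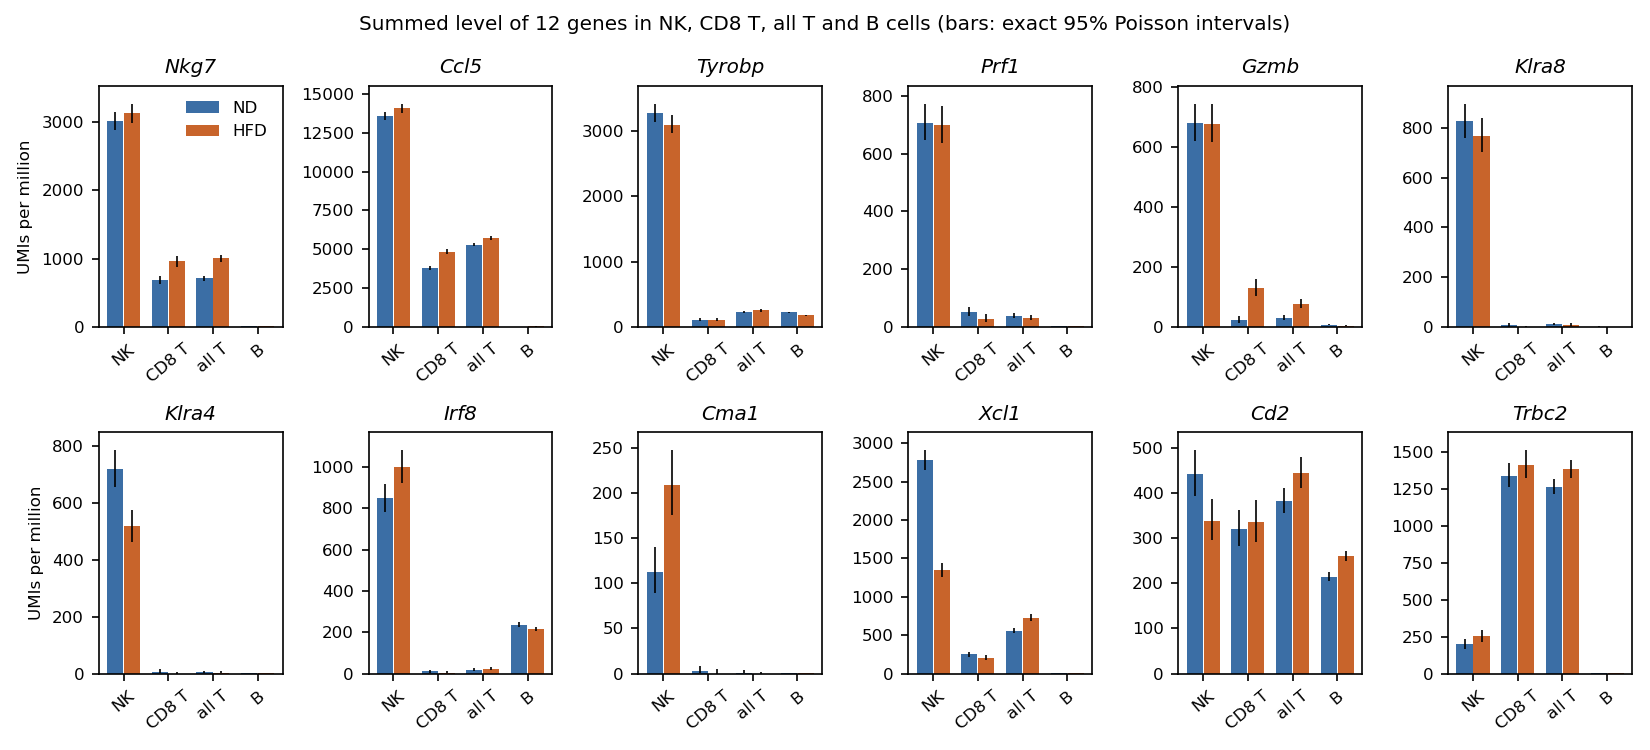
Level in UPM (vertical axes, each from 0) of 12 genes summed over NK, CD8 T, all T and B cells of each library, with exact 95% Poisson intervals. Nkg7, Tyrobp, Prf1, Gzmb, Klra8, Klra4, Irf8 and Cma1 stood highest in NK cells of both libraries, Xcl1 was lower in HFD NK cells (1350 against 2780 UPM), and Trbc2 was highest in T cells.

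Most genes of other innate lymphocytes and several of T cells had few or 0 UMIs. In both libraries Cd4, Cd8a and Themis had 0 UMIs. Among cells chosen in the same way, this count allows up to 2.26% of ND and 2.83% of HFD cells with a UMI. It does not limit the share of cells that express these genes. Trac, the alpha chain of the T-cell receptor, had 18 and 10 UMIs, against 835 and 780 in T cells. The beta chain constant genes did have counts: Trbc1 had 293 and 206 UMIs in 104 and 75 members, and Trbc2 had 137 and 163. Unrearranged loci of these genes are known to be transcribed in NK cells. Counts of the T-cell list were not limited to the genes named here. Its 16 genes summed to 626 and 491 UMIs, with Trbc1 the most abundant and 5 genes at 20 UMIs or more over both libraries. Of the genes of helper-like innate lymphocytes, Il22, Il17a, Il23r, Il5, Il13, Il4 and Il17rb had 0 UMIs. Of the 9 genes of the type 1 innate lymphoid cell list, Itga1 had 5 UMIs in each library and Cxcr6 had 6 and 4. Without the 7 cells, Cxcr6 had 0 UMIs in ND. Tmem176b had 43 and 61 UMIs in 9 and 7 cells (21 and 11 UMIs without the 7 cells). The list as a whole summed to 118 and 143 UMIs. It summed to 65 and 58 without the 7 cells, Rora then being its most abundant gene. Basophil and mast cell genes summed to 5 and 3 UMIs. The B-cell list, with Cd74 its most abundant gene, summed to 512 and 1660 UMIs, and to 200 and 186 without the 7 cells.

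Set beside T cells, 12 genes were named by the highest NK over T ratio, the smaller of both libraries being counted, and this ranking is a description since the members were separated by their transcripts. They were Klra4, Cma1, Klra8, Klrb1b, Khdc1a, Phactr3, Irf8, Gzma, Serpinb9b, Klri2, Ncr1 and Styk1. Gzma and Ncr1 are genes of the rule. Klra4 and Klra8, both Ly49 receptors, stood 123-fold and 72.3-fold above T cells in ND and 136-fold and 76.5-fold in HFD. Irf8, an interferon regulatory factor, was 848 UPM in ND and 1001 in HFD NK cells, 43.4-fold and 43.2-fold above T cells, and it was 237 and 217 in B cells. Granzyme B (Gzmb) was 678 and 676 UPM in NK cells, 24.5 and 128 in CD8 T cells, and 27.1 and 41.3 in T cells that were neither CD8 nor CD4. Cd2, an adhesion receptor, was found in both kinds of cell, at 441 and 338 in NK and 382 and 444 in T cells.

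NK cells were 2.21% (1.85 to 2.61) of kept ND cells and 1.70% (1.40 to 2.06) of kept HFD cells, intervals that overlap. The shares were 2.16% and 1.64% without the 7 cells. Among cells with under 2% of S100a8 and S100a9 UMIs, which leaves out neutrophils, they were 3.82% (3.20 to 4.51) and 2.87% (2.36 to 3.46). Relative to T cells the order was the other, again with overlapping intervals: NK cells were 33.25% (28.6 to 38.1) of NK and T cells together in ND and 35.1% (29.7 to 40.8) in HFD.

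Over all genes with at least 20 UMIs in NK cells of both libraries together, 5844 were compared and the median log2 ratio of HFD over ND was 0.06. Of these genes, 3.92% (229) were more than 2-fold higher in HFD and 2.67% (156) more than 2-fold lower. Without the 7 cells, 5469 genes could be compared and the shares were 2.25% (123 genes) and 2.03% (111 genes). Ratios are log2 of HFD over ND in UPM, with 0.5 UMI added to each count.

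Single genes of late maturation were higher in the HFD library, and most genes of early stages were lower. In the HFD library, Klrg1, an inhibitory lectin receptor of mature NK cells, was 2.92-fold higher and Itgam, Cma1 and Ly6c2 were 1.94-fold, 1.86-fold and 2.15-fold higher. Ltb, the membrane subunit of lymphotoxin, was 4.39-fold lower, Cxcr3, a chemokine receptor, 3.23-fold lower, and Xcl1 was 2.06-fold lower. Of the 12 late-stage genes, 11 could be compared. Of these, 7 were higher in HFD and 4 lower, with 2 past 2-fold (Klrg1 and Ly6c2), and the median was 0.11, close to all genes, of which 3227 of 5844 were higher with a median of 0.06. Of the 13 early-stage genes, 11 were lower and 2 higher, with 3 past 2-fold lower (Ltb, Cxcr3 and Xcl1), and the median was -0.64. The same lists in T cells gave a log2 ratio of summed UMIs of -0.15 (late) and 0.0036 (early), and in B cells of -0.82 and -0.20, against 0.07 and -0.80 in NK cells, the late sum being mostly Ccl5. The NK values were 0.17 and -0.61 without the 7 cells, with 8 late-stage genes higher and 3 lower, and 1 early-stage gene higher and 12 lower. The medians of the late and early genes were then 0.22 and -0.45. Xcl1 was under 2-fold without the 7 cells (-0.77), with no Cd3 UMI (-0.95), with at least 5 marker UMIs (-0.95) and after thinning (-0.83).

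Transcripts of some other cell types were also higher in HFD members. The neutrophil list, with S100a9 its most abundant gene and 0 of its 10 genes at 0, summed to 1476 and 1998 UPM, a log2 ratio of 0.44 (0.32 to 0.56), and of 0.22 (0.10 to 0.35) without the 7 cells, from 991 and 992 UMIs. It was 0.19 in T cells and 0.13 in B cells. Without the 7 cells the stromal list held 70 and 102 UMIs (0.76, 0.31 to 1.23), Spp1 being its most abundant gene and Pdgfra and Prrx1 being at 0, and the erythroid list held 112 and 142 (0.56, 0.20 to 0.94), Hbb-bs being its most abundant gene. The macrophage and monocyte list was not higher, with 68 and 51 UMIs (-0.19, -0.75 to 0.35) and Adgre1 and Fcgr1 at 0. Itgam and Ly6c2 are also expressed by myeloid cells. The part of such RNA in the values of the stage genes was not tested.

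Klrg1 had 24 UMIs in 14 of 133 ND members and 66 UMIs in 34 of 106 HFD members, which is 10.5% (5.87 to 17.0) and 32.1% (23.3 to 41.8) of cells. Its log2 ratio was 1.55 (0.87 to 2.30), and 1.62 without the 7 cells. Without the 7 cells, 3 ND cells and 9 HFD cells held 50% of its UMIs, and no cell had more than 6. After thinning to 1000 UMIs, Klrg1 was left in 4 of 133 and 6 of 105 cells, and at this depth the shares of 3.01% (0.826 to 7.52) and 5.71% (2.13 to 12.02) could not be told apart. B cells had 0 Klrg1 UMIs in both libraries. In T cells its level was 7.11 and 8.30 UPM, against 34.6 and 102 in NK cells.

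Itgam, the alpha chain of the Mac-1 integrin, had 48 UMIs in 37 ND members and 87 in 43 HFD members, a log2 ratio of 0.96 (0.44 to 1.50). Cma1 had 78 UMIs in 41 and 135 in 54 members (0.89, 0.48 to 1.32). It was close to absent elsewhere, with 2 and 0 UMIs in all T cells and 3 in B cells of each library. Ly6c2, a surface antigen shared with monocytes and T cells, had 135 UMIs in 40 and 270 in 45 members, but 60 of the latter lay in 1 cell, and its log2 ratio went from 1.10 to 0.88 without the 7 cells. It was 0.56 (0.24 to 0.89) among members with no Cd3 UMI and 0.55 (-0.18 to 1.30) after thinning, so that Ly6c2 was under 2-fold in all 3 of these settings. T cells had a log2 ratio of 0.60 for Ly6c2, and -0.78 for Itgam from 10 and 4 UMIs. Zeb2, a transcription factor of terminal maturation, had a log2 ratio of 0.50 (0.08 to 0.92), and 0.24 (-0.21 to 0.70) without the 7 cells. The other late-stage genes were near the median or below it: S1pr5 at 0.11, Ccl5 at 0.05, Klf2 at -0.07, Spn at -0.09, Prdm1 at -0.49 and S1pr1 at -0.57. Cx3cr1 had too few UMIs to be compared.

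**Figure D2:**
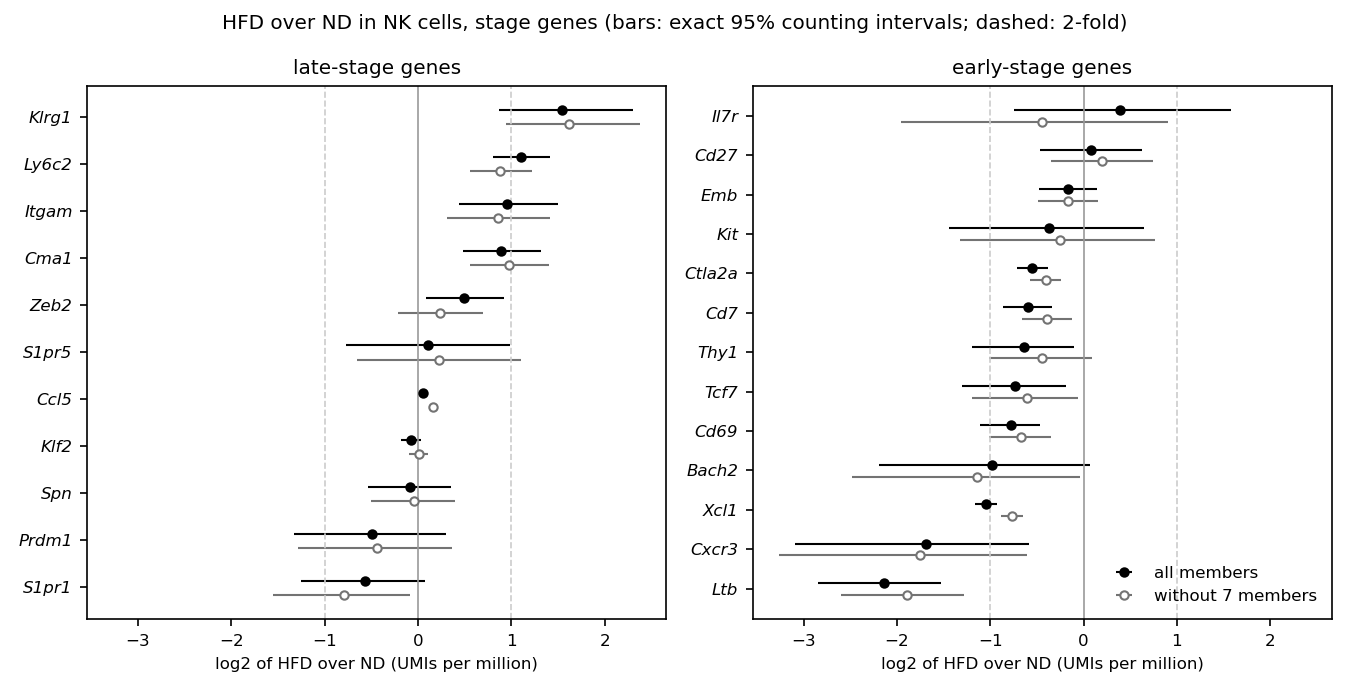
Log2 ratio of HFD over ND (horizontal axis, UPM) of each late-stage and early-stage gene with at least 20 UMIs, with exact 95% counting intervals, for all 239 members (filled) and without the 7 members that held RNA of another cell type (open). Klrg1, Ly6c2, Itgam and Cma1 lay above 0 and Ltb, Cxcr3, Xcl1, Cd69, Tcf7, Cd7 and Ctla2a below 0 in both settings.

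Xcl1 was the most abundant early-stage gene, at 2780 (2657 to 2907) UPM in ND and 1350 (1262 to 1443) in HFD. It had 1927 UMIs in 105 ND members and 870 in 74 HFD members, a log2 ratio of -1.04 (-1.16 to -0.93). The counts were 1729 and 869 and the ratio was -0.77 without the 7 cells. Over the remaining cells the median was 14.1 Xcl1 UMIs per 10000 in ND (0 to 168) and 7.35 in HFD (0 to 74.99), and the cells of both diets overlapped, except that the highest ND cells lay above every HFD cell. In T cells Xcl1 was not lower in HFD, at 554 and 727 UPM.

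Ltb had 120 UMIs in 46 of 133 ND members and 25 in 17 of 106 HFD members, which is 34.6% (26.6 to 43.3) and 16.0% (9.63 to 24.4) of cells. Its log2 ratio was -2.14 (-2.84 to -1.53), and it was -0.02 in T cells and -0.22 in B cells, where the gene was more abundant. After thinning, 12.8% (7.63 to 19.7) of ND and 3.81% (1.05 to 9.47) of HFD members had an Ltb UMI. These shares lay below those of B cells (19.6% and 17.4%), which express the gene themselves and cannot serve as its background. Cxcr3 had 29 UMIs in 21 cells and 8 in 8 cells. Cd7, an adhesion molecule, was 453 and 299 UPM (-0.60, -0.86 to -0.33, and -0.39 without the 7 cells), and Ctla2a, a cysteine protease inhibitor, was 1093 and 746 (-0.55, -0.72 to -0.38, and -0.41 without them). Tcf7, a transcription factor of early lymphocytes, had a log2 ratio of -0.73 (-1.31 to -0.19), Cd69 of -0.78 and Thy1 of -0.64. Cd27 itself had 59 and 58 UMIs in 38 and 32 cells, and its ratio of 0.08 (-0.47 to 0.63) did not exceed counting error.

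**Figure D3:**
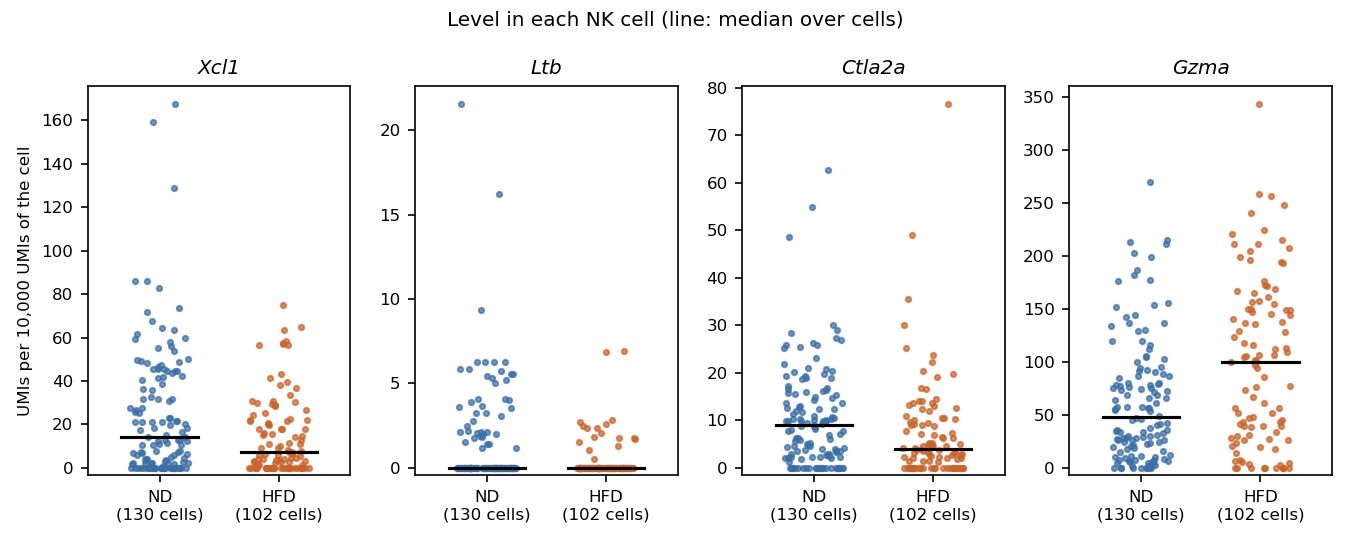
Level of Xcl1, Ltb, Ctla2a and Gzma in each of 130 ND and 102 HFD cells (vertical axis, UMIs per 10000 UMIs of the cell), with the median over cells as a line. The medians were 14.1 and 7.35 for Xcl1, 8.92 and 4.05 for Ctla2a and 48.0 and 100.2 for Gzma, the Ltb medians were 0, and the cells of both diets overlapped in all 4 panels.

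Among the 232 cells left without the 7, 32 ND and 27 HFD cells had a Cd27 UMI and no Itgam UMI, and 30 ND and 35 HFD cells had an Itgam UMI and no Cd27 UMI. The latter made up 23.1% (16.1 to 31.3) of ND and 34.3% (25.2 to 44.4) of HFD cells. Both genes were seen in 6 and 5 cells and neither in 62 and 35. The median depths were 5249 and 7083 UMIs in the Cd27-positive and 4241 and 4451 in the Itgam-positive cells. Of the effector genes, Gzmb was 1214 UPM in them against 497 in Cd27-positive cells in ND, and 1338 against 282 in HFD. Prf1 was 1214 against 603 and 1279 against 448, and Ccl5 was 18223 against 12214 and 25333 against 7620. Ifng went the other way, at 448 against 704 in ND and 438 against 832 in HFD, as did Xcl1, at 1749 against 2520 and 752 against 1776. Emb, a membrane glycoprotein, was also lower in Itgam-positive cells, at 231 against 369 in ND and 59.2 against 404 in HFD. Other stage genes did not keep this order in ND. Klf2 was 1316 (1131 to 1521) in Itgam-positive against 2213 (2000 to 2442) in Cd27-positive ND cells, but 2688 against 1202 in HFD, and Zeb2 was 101 against 207 in ND and 201 against 53.5 in HFD. Few cells carried Klf2: over the 232 cells, 10 cells of each library held 50% of its UMIs. The highest held 136 in ND and 126 in HFD, and the part of single cells in this order was not tested. Thy1, an early-stage gene, was 173 against 140 in ND, with overlapping intervals, and 35.5 against 117 in HFD, and Bach2 was 57.8 against 39.1 in ND from 8 and 7 UMIs.

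In cells with a Klrg1 UMI, 8 late-stage genes other than Klrg1, Itgam, Ccl5 and Klf2 summed to 960 UPM in ND (14 cells) and 1730 in HFD (33 cells). In cells without one they summed to 719 (116 cells) and 706 (69 cells). The median depths were 4934.5 and 4808 UMIs with Klrg1 and 4776.5 and 4989 without. The sum of the 11 early-stage genes other than Cd27 and Xcl1 was lower in Klrg1-positive cells of both libraries, at 1453 against 2883 UPM in ND and 1418 against 2128 in HFD, though not every gene was: Bach2 was 50.5 against 34.4 in ND, from 4 and 20 UMIs. Cma1 was 152 and 457 UPM in Klrg1-positive cells and 112 and 135 in the others. Among cells without a Klrg1 UMI, Xcl1 was lower in HFD, at 1780 against 2894 UPM. In cells with one it was the other way, at 949 (807 to 1109) UPM in HFD against 594 (436 to 790) in ND, from 158 and 47 UMIs, of which 63 HFD UMIs lay in 1 cell. A missing UMI at this depth does not show that a cell lacks Klrg1.

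Splitting by Eomes, a T-box factor that sets NK cells apart from type 1 innate lymphoid cells, gave 83 ND and 70 HFD cells with a UMI and 47 and 32 without. The Eomes-positive cells were deeper, with a median of 5193 and 5488 UMIs against 4256 and 4394.5. Tmem176b had 0 UMIs in Eomes-positive and 21 in Eomes-negative ND cells, and 2 and 9 in HFD, in 6 and 4 Eomes-negative cells. Itga1 had 2 and 2 UMIs in ND and 3 and 1 in HFD. Klra8, Nkg7 and Prf1 were found in Eomes-negative cells as well: Prf1 stood at 744 and 751 UPM there and at 724 and 802 in Eomes-positive cells. Eomes was a gene of the rule, and this split describes cells that had already been chosen on it in part.

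**Figure D4:**
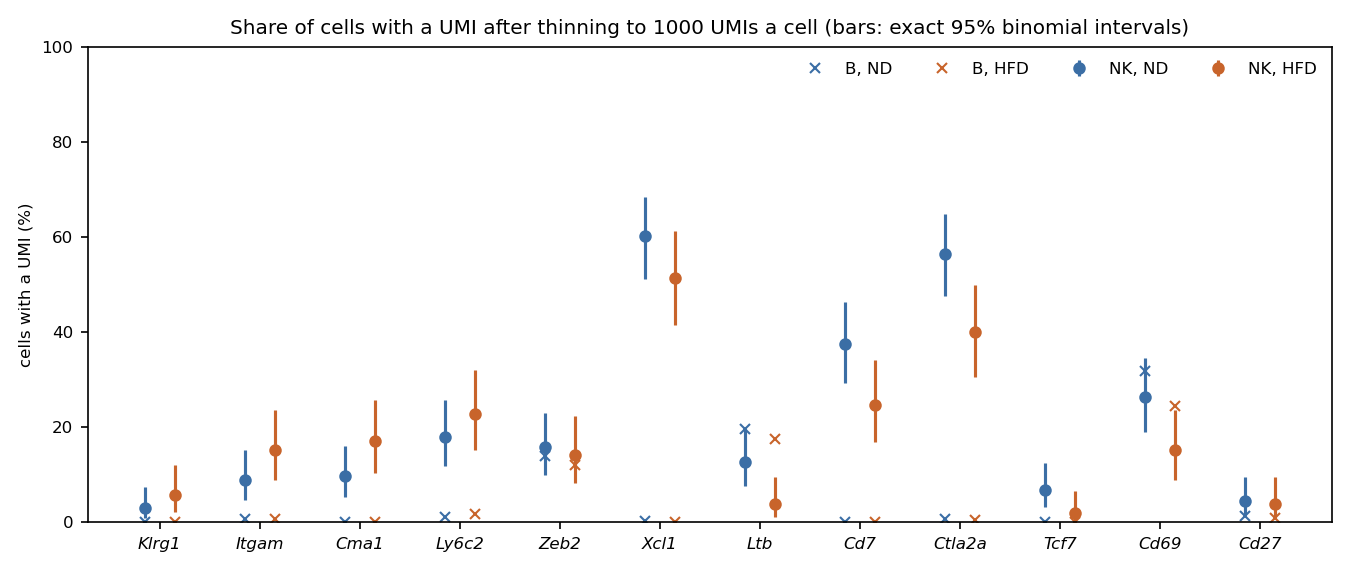
Share of NK cells with a UMI (vertical axis, %) of 12 stage genes after each cell was thinned to 1000 UMIs, with exact 95% binomial intervals, beside B cells (crosses). The intervals of ND and HFD members overlapped for every gene shown, and Klrg1, Cma1, Xcl1, Cd7 and Tcf7 were under 1% in B cells.

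Cytotoxic granule genes had small ratios. Of the 26 granule genes, 19 could be compared. In HFD 8 of them were higher and 11 lower, the median was -0.02, and 1 was past 2-fold. The balance turned without the 7 cells, with 11 higher, 8 lower and a median of 0.07. The list summed to 9894 (9661 to 10131) UPM in ND and 9517 (9280 to 9758) in HFD, Nkg7 being its most abundant gene, with Gzma left out of the list as a gene of the rule. Prf1 had a log2 ratio of -0.02 (-0.21 to 0.17) and Gzmb of -0.0031 (-0.19 to 0.19), and without the 7 cells they were at 0.11 (-0.07 to 0.30) and 0.08 (-0.11 to 0.28). Serpinb9b, a granzyme inhibitor, was the gene past 2-fold, from 19 and 36 UMIs in 12 cells of each library. Ctsw, a cathepsin of cytotoxic cells, was lower at -0.37 (-0.57 to -0.18), and Fasl, the death ligand, at -0.69 (-1.13 to -0.27). Gzmd, Gzme, Gzmf and Gzmg had 0 UMIs.

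Granzyme A, a gene of the rule, was the most abundant granzyme, at 5303 (5133 to 5477) UPM in ND and 7370 (7162 to 7582) in HFD. Its log2 ratio was 0.47 (0.41 to 0.54), and the median over cells was 48.0 and 100.2 UMIs per 10000. Gzma was also higher in HFD in T cells (87.4 and 176 UPM) and in B cells (10.3 and 19.5). Since members were chosen in part on Gzma, its ratio is a description.

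Adaptors had small ratios, and receptors differed among themselves. All 15 adaptor and signaling genes could be compared, with 8 higher, 7 lower, 0 past 2-fold and a median of 0.0046, and with 11 higher, 4 lower and a median of 0.07 without the 7 cells. Tyrobp was at -0.08 and Fcer1g at -0.04. Of 15 activating receptor genes compared, 4 were higher and 11 lower, with a median of -0.17 and 0 past 2-fold. Without the 7 cells, 5 were higher and 10 lower, the median was -0.03, and Fcgr3, an Fc receptor (24 and 8 UMIs), was past 2-fold lower. Klrk1 (NKG2D), which binds stress ligands, was 777 and 565 UPM (-0.46, -0.66 to -0.27, and -0.33 without the 7 cells), Cd160 was at -0.88 (-1.58 to -0.24), and Cd48 was higher at 0.62 (0.21 to 1.05). Klre1, the most abundant of them over both libraries together, was at 763 and 680 UPM. Of 5 inhibitory receptor genes with enough UMIs, Klrg1 and Lair1 were past 2-fold higher, and Lair1 was at 0.91 without the 7 cells. Klrc1 (NKG2A) was at -0.26 (-0.58 to 0.06), and Pdcd1 had 0 UMIs.

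The Ly49 genes differed from each other. Klra8 (Ly49H in this strain) was the most abundant at 825 (759 to 896) and 766 (700 to 837) UPM, and was found in 84 of 133 ND and 60 of 106 HFD members. Its log2 ratio was -0.11 (-0.28 to 0.07), and 0.03 (-0.15 to 0.21) without the 7 cells. Klra4 (Ly49D), an activating member, was 720 and 518 (-0.47, -0.68 to -0.27, and -0.38 without the 7 cells), and Klra3 was 273 and 171 (-0.67, -1.03 to -0.33). Klra9 went the other way, at 268 and 396 (0.56, 0.28 to 0.84), in 48 of 133 and 55 of 106 cells. Klra6 was past 2-fold higher, from 3 UMIs in 2 cells to 20 in 8, and it was also found in 24 ND and 26 HFD T cells. Of 7 members compared, 2 were higher and 5 lower, and the list had a log2 ratio of summed UMIs of -0.18 (-0.28 to -0.08). With the 7 cells left out, 3 were higher and 4 lower, and the summed ratio was -0.08 (-0.18 to 0.03). The median cell had UMIs of 3 Ly49 genes in both libraries. Of the remaining cells, 11 of 130 in ND and 9 of 102 in HFD had none.

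Ly49 genes are close copies of each other, and reads that match more than 1 of them equally are not counted. In the last 500 bases of the GENCODE vM21 transcripts, windows of 90 bases that also occurred in another Klra gene made up 10.5% of those of Klra10, 5.15% of Klra3 and 4.74% of Klra9. For Klra1, Klra4, Klra6, Klra7 and Klra8 the value was 0. The effect of such reads on the Klra9 and Klra3 levels was not tested.

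**Figure D5:**
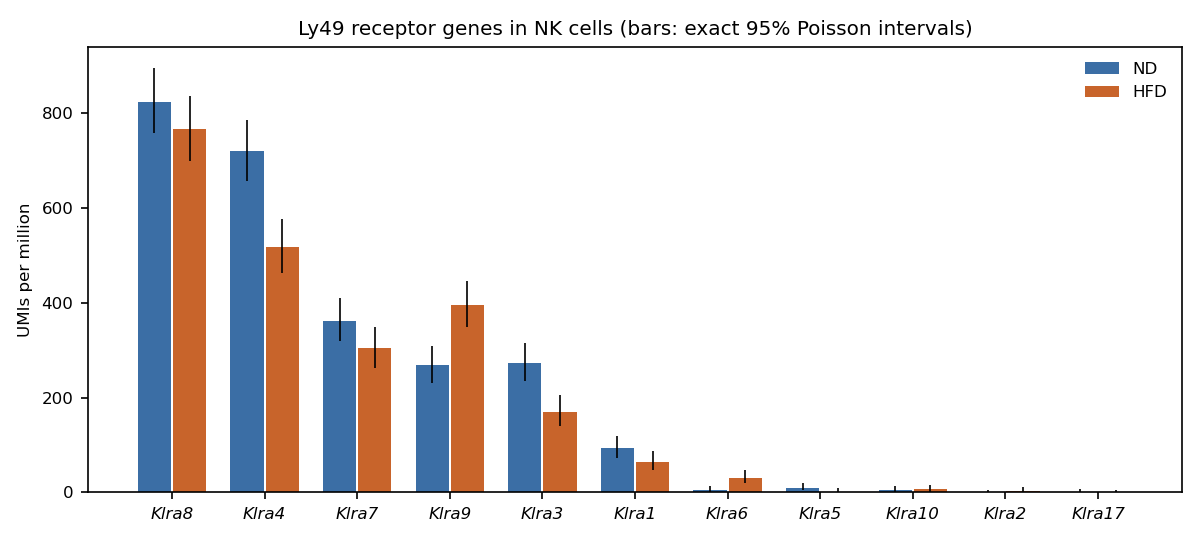
Level of the Ly49 (Klra) genes in NK cells (vertical axis, UPM, from 0), with exact 95% Poisson intervals. Klra8 and Klra4 were the most abundant in both libraries, Klra4 and Klra3 were lower in HFD, and Klra9 was higher in HFD.

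Of the transcription factors, 19 of 23 could be compared. HFD was higher for 6 and lower for 13 of them, the median was -0.17, and 0 were past 2-fold. Once the 7 cells were left out, 11 were higher and 8 lower, with a median of 0.02, and Bach2, a repressor (24 and 9 UMIs), was past 2-fold lower. Id2, which all innate lymphocytes need, was 974 and 636 UPM (-0.61, -0.79 to -0.43, and -0.55 without the 7 cells). Tbx21 (T-bet), which drives late maturation, was at -0.61 (-1.07 to -0.17), from 112 UMIs in 66 cells and 68 in 45. Irf8 was higher at 0.24 (0.08 to 0.40) and Ets1 at 0.25 (0.05 to 0.45). Zfp683 had 0 UMIs.

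Among secreted factors, 11 of 19 could be compared, 9 lower and 2 higher with 3 past 2-fold lower (Ltb, Il16 and Xcl1). Without the 7 cells, 10 could be compared, 8 lower and 2 higher. Of these, 2 were past 2-fold lower, and Xcl1 (-0.77) was not. Ccl5 made up most of the list, at 13556 and 14061 UPM. Ifng was 711 and 479 (-0.57, -0.78 to -0.36, and -0.45 without the 7 cells), but among the 232 cells 7 ND and 4 HFD cells held 50% of its UMIs. Ccl4 was 3642 and 2771 (-0.39, -0.48 to -0.31), whereas Ccl3, a chemokine of the same family, was 690 and 849 (0.30, 0.12 to 0.48). These too were carried by few cells: among the 232 cells, 12 ND and 11 HFD cells held 50% of Ccl4 UMIs. For Ccl3 they were 8 and 7. Il16 had 51 UMIs in 40 ND cells and 14 in 12 HFD cells (-1.72, -2.73 to -0.88). Of 24 cytokine receptor and signaling genes, 15 were lower and 9 higher, and Il17ra (-1.38, -2.12 to -0.73) was past 2-fold. Il2rb, the receptor subunit through which interleukin 15 keeps NK cells alive, was at -0.12 (-0.34 to 0.11).

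Immediate early and heat shock genes, which tissue digestion is known to induce, were lower in HFD in NK, T and B cells. In NK cells 29 of 31 were lower, with a median of -0.30, and the list summed to 28136 and 23425 UPM. The log2 ratio of summed UMIs was -0.26 (-0.30 to -0.23) in NK cells, -0.56 in T cells and -0.65 in B cells. Fos was 1056 and 580 UPM and Nfkbia, an inhibitor of NF-kB, was 1564 and 827 (-0.92, -1.07 to -0.77). Hspa1a went the other way in NK cells, at 0.43 (0.30 to 0.56), and was at -1.32 in T and -1.55 in B cells. Cd69 belongs to this list and to the early-stage list. The part of digestion in the lower values of other genes was not tested.

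Transcripts of dividing cells summed higher in HFD over all UMIs, but not beyond counting error after thinning. All 11 genes compared were higher, 4 of them past 2-fold, and the list summed to 404 (358 to 454) and 780 (714 to 852) UPM, a log2 ratio of 0.95. It was 0.88 without the 7 cells, -0.10 in T cells and 0.19 in B cells. A few cells carried it: the median was 2 UMIs of the list per cell in both libraries, and 2 of 130 ND and 2 of 102 HFD cells had at least 20, the highest with 31 of 272 and 104 of 429 UMIs. With each cell thinned to 1000 UMIs, the ratio was 0.19 (-0.33 to 0.70).

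Metabolic genes had ratios on either side of 0. Of 21 genes of glycolysis and nutrient uptake, 13 were higher and 8 lower, with a median of 0.15. Slc2a1, the glucose transporter (17 and 3 UMIs), and Myc (61 and 21) were past 2-fold lower. Without the 7 cells, 18 could be compared, 13 higher and 5 lower, with a median of 0.11. Of these, 1 was past 2-fold higher and 1 past 2-fold lower. Gapdh was at 0.31 (0.13 to 0.48), and at 0.18 without the 7 cells. Of 11 lipid handling genes, 9 were lower and 2 higher with a median of -0.21 and 0 past 2-fold. The list summed to 535 and 467 UPM (-0.20, -0.42 to 0.03), Acadl, a fatty acid oxidation enzyme, being the most abundant, and Ppara and Pparg had 0 UMIs. Of 13 interferon response genes, 10 were lower, with Irf1 at -1.06, and Bst2 was past 2-fold higher with the 7 cells included (1.39) and at -0.12 without them. Of 19 trafficking genes, 10 were higher and 9 lower, with Itgb2 at 0.53 (0.22 to 0.85) and Itgb1 at 0.33 (0.12 to 0.55).

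Ranked over all genes with at least 100 UMIs, most of the highest ratios and part of the lowest rested on the 7 cells. The 12 highest ratios were those of Elane, Prtn3, Mpo, H2-Aa, H2-Ab1, H2-Eb1, Cd74, Sparc, Plac8, Stmn1, Gpx3 and Lyz2. Of 891 HFD UMIs of Elane, 872 lay in 1 cell, and of 1518 of Cd74, 1337 did. The 12 lowest were Clu, Cilp, Ecrg4, Mgp, Prg4, Dcn, Ltb, Cxcl2, Nfkbid, Cited2, Gadd45g and Clec2d, and all 1323 ND UMIs of Ecrg4 came from 1 cell. Among the highest, Stmn1, a tubulin-binding protein of dividing cells, was at 1.62 with and 1.54 without the 7 cells, from 32 ND and 39 HFD cells. Of its 187 HFD UMIs, 44 lay in 1 cell. Among the lowest, Ltb (-1.89), Cxcl2 (-3.94), Nfkbid (-1.25), Cited2 (-1.46), Gadd45g (-1.17) and Clec2d (-1.18) were past 2-fold lower without these cells as well. Prg4 turned to 3.46 (1.73 to 6.88) without the 7 cells, from 2 ND and 23 HFD UMIs.

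Without the 7 cells, the highest ratios belonged to Stmn1, Hist1h4d, Hist1h2ae, Gm47283, Hist1h2ap, Nudt4, Cma1, Vps36, Usp3, Ly6c2, Pa2g4 and Ppp1r14b. Of 188 HFD UMIs of Hist1h2ap, a histone gene, 76 lay in 1 cell. Over all members, so did 45 of 110 HFD UMIs of Hist1h2ae and 29 of 95 of Hist1h4d. Gm47283 was at 1.09, and it was also higher in HFD in T cells (0.90) and B cells (1.09). The lowest belonged to Cxcl2, Ltb, Cited2, Nfkbid, Clec2d, Gadd45g, Gadd45b, Arl4d, Icam1, Ccrl2, Nfkbiz and Irf1. Nfkbid and Nfkbiz, both regulators of NF-kB, were at -1.25 and -0.95, with -0.09 and -0.15 in T cells and -0.32 and -0.44 in B cells. Clec2d, the ligand of the inhibitory receptor encoded by Klrb1b, was at -1.18, and over all members it was found in 57 ND and 26 HFD cells. Of Cxcl2, 111 of 116 ND UMIs lay in 1 cell. Over all members, 34 of 81 ND UMIs of Ccrl2 lay in 1 cell, as did 41 of 158 of Cited2.

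The most abundant genes, leaving out mitochondrial genes and ribosomal protein genes named Rpl or Rps, had smaller ratios than these. They were Malat1, Ccl5, Gm42418, Tmsb4x, Actb, Tmsb10, Fau (which encodes a ribosomal protein as well), Gzma, Eef1a1, Ubb, Tpt1, H2-D1, H3f3b, Jund, Ptma, AW112010, Hspa8, Ccl4, Tyrobp and Hsp90ab1, and among them Gzma (0.47) and Ccl4 (-0.39) lay farthest from 0 in either direction.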

How the data were processed

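Periosteal cells of the left femurs and tibias were measured by 10x Genomics single-cell sequencing. The deposited values are UMI counts per gene and barcode, which the authors made with Cell Ranger 6.0.1 on mm10 (per the labels) without normalization, with 1 matrix per diet, so that replicates were pooled. Reads that match several genes equally are not counted by this tool. Counts were summed over the members of each library and divided by their total UMIs. T cells were kept cells with at least 3 Cd3 UMIs, called CD8 with at least 2 Cd8a and Cd8b1 UMIs and no Cd4, and CD4 with at least 1 Cd4 UMI and no Cd8. B cells had at least 2 Cd79a UMIs. Levels have exact Poisson intervals, shares exact Clopper-Pearson intervals and ratios exact conditional binomial intervals (95%). A count of 0 was taken to allow 3 counts. UMIs of 1 cell are not independent, so that intervals are too narrow for a population of cells. The ratio and its interval were run on simulated counts drawn independently for each gene from a Poisson distribution, as the interval assumes. The simulation leaves out UMIs that cluster in single cells, so it cannot show how the intervals perform on these data. Shares were also computed after thinning each cell to 1000 UMIs (1 shallower HFD member, no ND member, and 12 ND and 8 HFD B cells were dropped). Doublets were not removed: Scrublet (scanpy 1.11.5) marked 10 of 6029 ND and 11 of 6224 HFD cells (0.166% and 0.177%), too few for the caller to have worked. Python 3.11.15, numpy 2.4.6, scipy 1.17.1 and pandas 2.3.3 were used.

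Named genes were any of the fixed lists, the 12 highest and 12 lowest ratios with at least 100 UMIs, the 20 most abundant, and the 12 highest NK over T ratios with at least 50 UMIs. The same ranks without 7 members, and the promoter windows and motifs, were chosen after the values were seen. Members and lists were chosen with earlier results of these data known. Klra13-ps and Mx1 of the lists had no row in the matrices. Alternatives were other limits on Cd3, marker sum, mitochondrial share and gene minimum, thinned cells, and totals without ribosomal protein, mitochondrial and immediate early genes.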

Additional observations from a re-analysis of the deposited data

How the results depend on the processing

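No paired analysis was possible because each diet was deposited as 1 pooled matrix whose barcodes carry no replicate number, and leaving out a replicate was not possible for the same reason. Removal of Scrublet doublets was not run, since the caller marked too few cells. Low counts limit the genes under 20 UMIs. The NK shares stayed within their intervals under the alternatives run. Genes past 2-fold higher and lower numbered 229 and 156, which is 3.92% and 2.67% of the 5844 compared. They numbered 51 and 57 with cells thinned to 1000 UMIs. With at least 50 UMIs they were 61 and 44, and with at least 1 UMI 2306 and 1967. The number of genes compared changes with thinning and with the minimum and is not given for these settings, so these counts cannot be set against each other. Without the 7 members with RNA of another type, an alternative chosen after seeing the data, 123 of 5469 (2.25%) were higher and 111 (2.03%) lower. Of 22 single genes, 22 kept their sign with no Cd3 UMI, 20 with a marker sum of at least 5, 22 under 10% mitochondrial UMIs, 21 thinned, 22 with other totals and 19 without the 7 members. By the rule, the type 1 innate lymphoid list had a log2 ratio of summed UMIs of 0.381 (0.02 to 0.75). Its sign turned with a marker sum of at least 5 and with members weighted equally. The log2 ratios of list sums moved as follows, and the cause was not tested. Thinned, they were 0.188 (cycling), 0.118 (cytokine receptors), 0.0658 (cytokines), -0.206 (immediate early), 0.212 (late-stage), 0.0125 (adaptors), 0.142 (trafficking) and -0.0222 (transcription factors). With a marker sum of at least 5, they were -0.0647 (cytokines), -0.531 (type 1 innate lymphoid), -0.23 (immediate early), 0.148 (late-stage), -0.0324 (transcription factors) and -1.69 (type 2 and 3 innate lymphoid, 1.04 by the rule from 5 and 10 UMIs). With no Cd3 UMI, they were -0.124 (cytotoxic) and -0.227 (immediate early), and with totals without ribosomal protein, mitochondrial and immediate early genes -0.295 (immediate early). Without the 7 members, they were -0.124 (activating receptors), 0.0015 (cytokine receptors), -0.0232 (cytokines), -0.607 (early-stage), -0.181 (immediate early), -0.0762 (Ly49), 0.165 (late-stage), 0.0059 (adaptors), 0.0014 (transcription factors) and -0.915 (type 2 and 3 innate lymphoid). With members weighted equally, also chosen after seeing the data, they were -0.132 (activating receptors), 0.463 (cycling), 0.014 (cytokine receptors), 0.0421 (cytokines), -0.00038 (cytotoxic), -0.701 (early-stage), -0.136 (type 1 innate lymphoid), -0.215 (immediate early), 0.259 (inhibitory receptors), 0.229 (late-stage), 0.0053 (adaptors), 0.0255 (transcription factors) and -0.472 (type 2 and 3 innate lymphoid).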

Other observations

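Cells that met the other limits of the rule but had 3 or more Cd3 UMIs numbered 52 in ND and 60 in HFD. Nkg7 had a UMI in 52 and 58 of them, with 570 and 820 UMIs of Nkg7 and 4270 and 5162 of Ccl5 in all. Their median depths were 7888 and 9067 UMIs, above those of the NK cells. All of them are counted among the 267 ND and 196 HFD T cells, so that the T-cell levels above include their UMIs.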
